A study of Mus musculus with 10 samples.

Results

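The plasminogen activation genes followed here were Serpine2, Plat, Plau and Plaur, read in CUT&Tag data from mouse primary cardiac fibroblasts. CUT&Tag uses an antibody to bring a transposase to chromatin, so that reads pile up where the protein or mark sits. Members were every region that the deposited tables assigned to 1 of these 4 symbols, which gave 65 of 340994 listed regions over 5 tables and 4 of 22473 genes. The regions numbered 8 in the H3K9lc table, 29 for c-JUN, 13 for SMAD3, 7 for NFATC2 and 8 in the table of control against TGF-β. Each region was assigned by the authors to the gene with the nearest annotated start site, so that a distal region need not act on the gene whose name it carries.

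Plasmin, the protease that dissolves fibrin and activates matrix metalloproteases, is cut from plasminogen by a pair of activators. Plat encodes the tissue-type activator and Plau the urokinase-type activator, which works at the cell surface when bound to its receptor, encoded by Plaur. Serpine2 encodes protease nexin-1, a secreted inhibitor of urokinase, plasmin and thrombin. In fibroblasts, the balance of these proteins governs how fast matrix is degraded, and several genes of the system are classic targets of TGF-β signalling and of AP-1, the dimer that contains c-JUN.

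The groups were a control library (NC, no treatment), TGF-β libraries, and siHK1 libraries of cells given an siRNA against hexokinase 1 and then TGF-β. The TGF-β and siHK1 conditions were each profiled for lactylated histone H3 lysine 9 (H3K9lc), c-JUN, SMAD3 and NFATC2, and the comparisons asked whether TGF-β alters H3K9lc and whether loss of HK1 alters H3K9lc and binding of the 3 factors. There was 1 library per condition and antibody, so that values carry no replicate error and differences between conditions were left untested. Every interval below is an exact 95% interval for counting error alone, and PCR copies are not separate molecules. The label of the NC library gives no antibody, and it was read as H3K9lc from the table it belongs to. The knockdown was not checked here because neither RNA nor protein was measured, and the labels do not say how many animals the cells came from.

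Reads over all listed regions numbered 2490853 in the TGF-β library and 1419023 in the siHK1 library for H3K9lc, and 4215447 and 2271336 for c-JUN. The SMAD3 and NFATC2 libraries had 354599 to 575706 reads over their listed regions, and the NC library held 115572 against 2313288 in the TGF-β library over the same regions. These sums move with how much was called, and the reads per kb of listed region fell between 17.6 and 112 in all libraries except NC, at 3.77. Reads of each pair were therefore scaled to equal totals, and a region or gene counted as lower or higher when its scaled reads differed at least 2-fold at a mean scaled count of at least 5. The ratios then show each member relative to all listed regions, and a loss common to every region cannot be seen in them. The fibroblast identity was looked at through c-JUN regions within 1 kb of a start site, which 7 of 10 fibroblast genes had. Col1a1, Dcn and Thy1 had none. Of the markers of other cells, 4 of 5 endothelial, 2 of 5 leukocyte and 1 of 5 cardiomyocyte genes had one. The share of all genes with such a region was not worked out, and 75.5% of all genes had a c-JUN region at any distance. These counts do not set fibroblasts apart from endothelial cells, so that they do not establish the identity of the cells. The part of other cells in the values below was not tested.

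On GRCm38, Serpine2 (ENSMUSG00000026249.10) lies on the minus strand at chr1:79794197-79861180 and Plat (ENSMUSG00000031538.6) on the plus strand at chr8:22757727-22782844. Plau (ENSMUSG00000021822.3) lies at chr14:20836660-20843385 and Plaur (ENSMUSG00000046223.10) at chr7:24462484-24475968, both on the plus strand. RefSeq promoter sequences (GRCm38.p6, 250 bases before to 50 after a start) were matched for 2 of the 4 genes, Plaur and Serpine2. They are shown because both start sites lay near a c-JUN region and the motif of AP-1 was in just 1 of the pair. Capitals mark the AP-1 motif, searched as TGANTCA on both strands.
Plaur promoter (chr7:24462233-24462532, plus strand): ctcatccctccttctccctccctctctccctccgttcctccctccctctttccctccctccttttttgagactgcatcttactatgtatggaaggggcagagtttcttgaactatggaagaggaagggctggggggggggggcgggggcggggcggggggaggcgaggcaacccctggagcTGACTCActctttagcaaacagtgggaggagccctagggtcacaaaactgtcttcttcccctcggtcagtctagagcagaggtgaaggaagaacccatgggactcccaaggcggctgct
Serpine2 promoter (chr1:79858616-79858915, minus strand): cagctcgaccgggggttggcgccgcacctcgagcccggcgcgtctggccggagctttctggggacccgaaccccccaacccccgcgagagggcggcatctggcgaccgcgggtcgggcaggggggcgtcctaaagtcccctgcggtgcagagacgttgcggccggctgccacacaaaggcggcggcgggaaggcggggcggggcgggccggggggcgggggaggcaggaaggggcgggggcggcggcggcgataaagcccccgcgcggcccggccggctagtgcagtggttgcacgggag
The Plaur window held 1 AP-1 match, TGACTCA, 69 bases before the start site at chr7:24462414-24462420, inside the c-JUN region at the Plaur start. The Serpine2 window held none, was 77.7% G or C against a median of 52.7% over 32851 promoters, and overlapped no listed region of any antibody. The nearest c-JUN region, at another annotated Serpine2 start, was 621 bp away. A match to TGANTCA was present in 7.81% of all these promoters.

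Outside the start sites, the central 200 bp of 3 c-JUN regions are shown, again with AP-1 in capitals, read on the plus strand of GRCm38. The first is the intronic c-JUN region of Plaur, the second the distal Serpine2 region with the most c-JUN reads in the TGF-β library, and the third the Serpine2 region that was higher in the siHK1 library.
Plaur intron (chr7:24470540-24470739): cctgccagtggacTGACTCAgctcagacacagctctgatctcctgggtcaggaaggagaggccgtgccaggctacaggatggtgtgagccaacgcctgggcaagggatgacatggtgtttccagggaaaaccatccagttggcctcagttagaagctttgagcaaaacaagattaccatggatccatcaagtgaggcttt
Serpine2 distal, 149.4 kb upstream (chr1:80010736-80010935): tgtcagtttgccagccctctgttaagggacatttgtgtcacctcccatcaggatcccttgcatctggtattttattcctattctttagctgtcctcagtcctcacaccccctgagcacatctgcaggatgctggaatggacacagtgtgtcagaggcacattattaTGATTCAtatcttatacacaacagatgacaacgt
Serpine2 distal, 75.1 kb upstream (chr1:79936329-79936528): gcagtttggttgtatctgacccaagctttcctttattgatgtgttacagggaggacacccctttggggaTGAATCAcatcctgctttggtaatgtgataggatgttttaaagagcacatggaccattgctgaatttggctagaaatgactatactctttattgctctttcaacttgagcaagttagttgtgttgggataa
Over all 29 c-JUN regions of the members, 8 held an AP-1 match in their central 200 bp (27.6%), near the 29.2% of all 72990 c-JUN regions. Of the 9 intergenic Serpine2 regions, 5 held one (55.6%), beside 34.6% of all intergenic c-JUN regions, and none of its 4 other regions did, beside 26.6% of all other c-JUN regions. Plat, Plau and Plaur each had 1 region with a match. A match is a description of the letters and not a binding site, and no match says only that these letters are not in the window. The SMAD letters CAGAC were in 3 of the 13 SMAD3 regions of the members (23.1%; 38.2% of all), and the NFAT letters GGAAA in 5 of the 7 NFATC2 regions (71.4%; 42.9% of all).

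**Figure D1:**
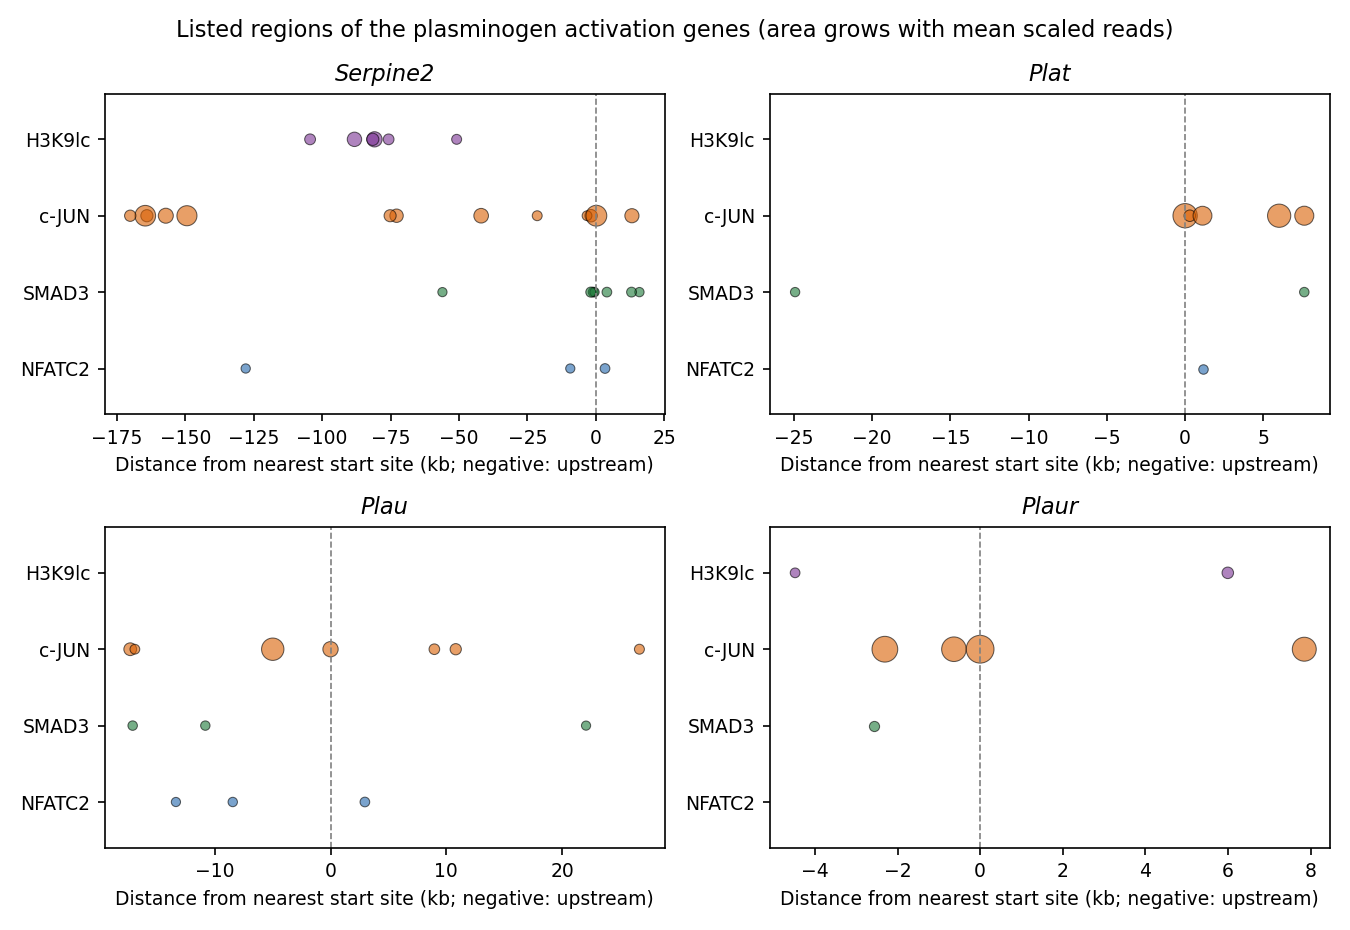
Listed regions of each gene by antibody, placed by distance from the nearest annotated start site (kb, upstream negative); the area of a point grows with the mean scaled read count. H3K9lc points appear only for Serpine2 and Plaur, and all 6 of Serpine2 sit 50.8 to 104.4 kb upstream. c-JUN points lie at or near the start of each gene shown, and the share of all genes with such a point was not worked out.

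c-JUN, a subunit of AP-1, was the antibody with the most data at these genes. All 4 genes had a c-JUN region within 1 kb of an annotated start. The share of all genes with such a region was not worked out. Of all 22473 genes, 75.5% had a c-JUN region at any distance, and 25.6% of all c-JUN regions were classed as promoter. The summed raw c-JUN reads of the 4 genes in the siHK1 library were 44.1% to 58.7% of those in the TGF-β library, where the totals over all regions were 4215447 and 2271336. At equal totals the log2 ratios of the 4 genes lay between -0.29 and 0.12. None of the 4 genes was at least 2-fold lower (3.35% of 16617 genes tested) or higher (2.8%). Per kb of region and per 1000000 reads over listed regions, Plaur had the highest level in the TGF-β library at 55.5, followed by Plat at 41.6, Plau at 25.4 and Serpine2 at 22.6. The counting intervals of Plau (22.6 to 28.5) and Serpine2 (20.8 to 24.4) overlapped, and the other neighbours in that order did not. In the siHK1 library the levels were 56.6 for Plaur, 39.2 for Plat, 24.6 for Serpine2 and 20.8 for Plau, so that only the last pair changed places, with intervals that overlapped again. Plaur was thus in the top few percent of genes by c-JUN level per kb, at percentile 97.6, and Plat was at 92.3, whereas Serpine2 and Plau were at 66.1 and 64.8.

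**Figure D2:**
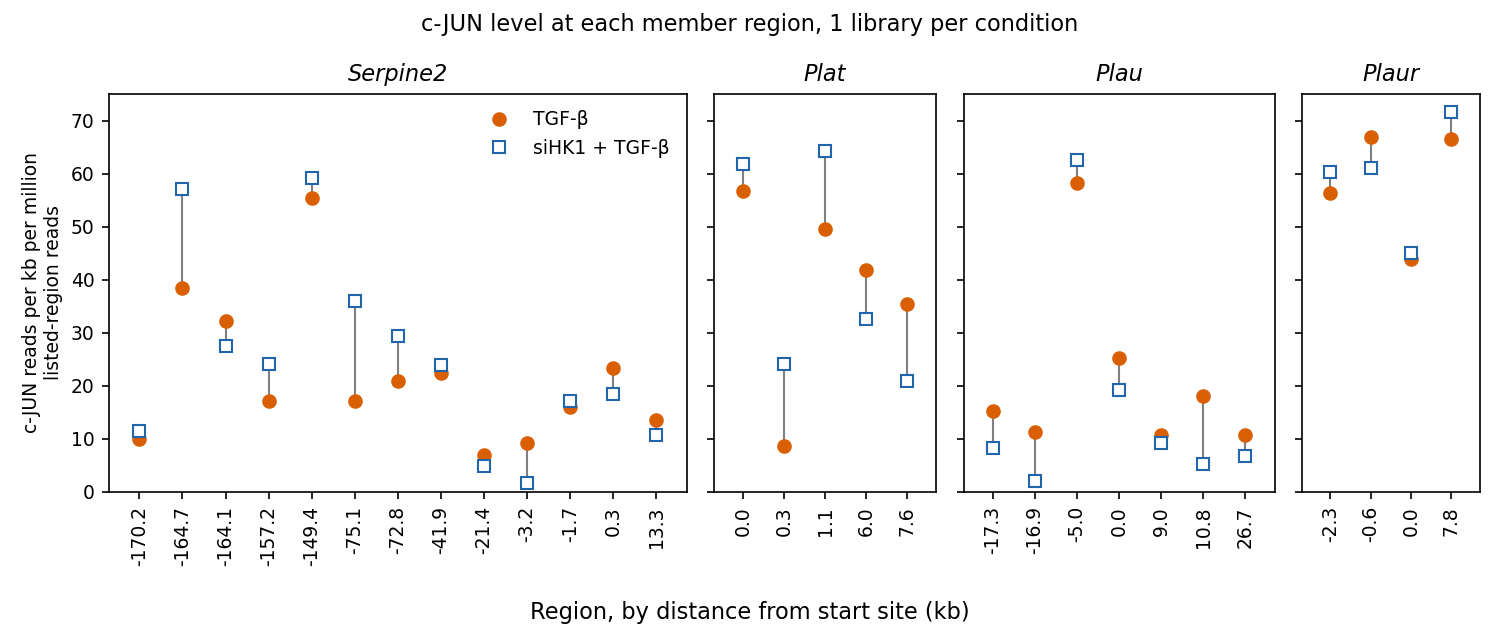
c-JUN level (reads per kb per 1000000 listed-region reads) at each of the 29 member regions, ordered by distance from the nearest start site, in the TGF-β (filled circles) and siHK1 (open squares) libraries. At each of the 4 Plaur regions the circle and the square lie close together, and at 6 of the 7 Plau regions the siHK1 square lies below the TGF-β circle. Of the 6 Plau regions at the minimum level 5 had a ratio below 0, as had 52.4% of all c-JUN regions tested.

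Plaur, the urokinase receptor, had 4 c-JUN regions, each marked as a peak in both libraries. The region over its start (chr7:24462050-24463320) held 235 reads in the TGF-β library and 130 in the siHK1 library. The next region upstream held 189 and 93 reads, the one 2.31 kb upstream 194 and 112, and the intronic region 7.85 kb downstream 164 and 95. After scaling, the 4 log2 ratios lay between -0.13 and 0.11, the narrowest range of the 4 genes. Summed, Plaur had 782 and 430 reads, a log2 ratio of 0.030 (95% interval -0.14 to 0.20), which turned to -0.029 when totals were taken over regions with a peak in both libraries.

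Plat, the tissue-type activator, had 5 c-JUN regions, all from its start to 7.61 kb into the gene, and they differed in direction along that stretch. The region over the start (chr8:22757126-22757831) held 169 and 99 reads in the TGF-β and siHK1 libraries, a log2 ratio of 0.12 (-0.25 to 0.49). A small region 0.301 kb downstream (chr8:22758096-22758370) held 10 and 15 reads and was 2.74-fold higher in the siHK1 library on scaled reads (log2 ratio 1.45, 0.23 to 2.79). Only the siHK1 library had a peak called there. The region 1.11 kb downstream held 83 and 58 reads (0.38, -0.13 to 0.88).
The pair of intronic Plat regions lay on the other side of 0. The region 6.01 kb downstream held 178 and 75 reads (-0.35, -0.76 to 0.042), and the one 7.61 kb downstream (chr8:22765409-22766230) held 123 and 39 reads (-0.75, -1.32 to -0.23). The last of these held an AP-1 match, and its ratio did not reach 2-fold. With these opposite signs the Plat sum, 563 and 286 reads, had a log2 ratio of -0.084 (-0.30 to 0.12), whereas the regions within 3 kb of the start alone gave 0.29.

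Plau, the urokinase-type activator, had 7 c-JUN regions. Of the 6 that reached the minimum level 5 had a ratio below 0, as had 52.4% of all c-JUN regions tested, and the other region, with 10 and 1 reads, was also below 0. The region with the most reads, 4.99 kb upstream (chr14:20831100-20831669), was the exception, with 140 and 81 reads (log2 ratio 0.11, -0.31 to 0.51). The region over the start held 61 and 25 reads (-0.38, -1.13 to 0.30), and the region 10.8 kb downstream of a start (chr14:20847541-20847880) held 26 and 4 reads (-1.67, -3.79 to -0.28). Peaks were called in both libraries at 2 Plau regions and in the TGF-β library alone at the other 5. Peaks in the TGF-β library alone numbered 5 of 13 at Serpine2 and 0 at Plat and Plaur, and made up 38.1% of all c-JUN regions. Summed, Plau had 297 and 131 reads, a log2 ratio of -0.29 (-0.60 to 0.013), and -0.75 without its highest region.

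Serpine2, the inhibitor, had 13 c-JUN regions spread from inside the gene to 170.2 kb upstream. The region at its start (chr1:79859537-79860924) held 137 and 58 reads (log2 ratio -0.34, -0.82 to 0.11) and had a peak in the TGF-β library alone. Of its 9 intergenic regions 8 reached the minimum level, and of these 7 had ratios above 0 and 1 below, while 52.7% of all 22825 intergenic c-JUN regions tested lay below 0. The remaining one, with 8 and 3 reads, also lay below 0. The region 164.7 kb upstream held 96 and 77 reads (0.58, 0.12 to 1.02), the one 149.4 kb upstream 108 and 62 (0.096, -0.38 to 0.56), and the one 75.1 kb upstream 15 and 17 (1.07, -0.017 to 2.18). The last was 2.10-fold higher in the siHK1 library on scaled reads, with a peak called in that library alone. On the authors' normalized values its log2 ratio was 0.91, which did not reach 2-fold. The sum was 605 and 355 reads, a log2 ratio of 0.12 (-0.070 to 0.31), against -0.26 for the regions within 3 kb of a start.

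Over all 29 c-JUN member regions, 26 reached the minimum level. Of these, 1 was at least 2-fold lower in the siHK1 library, the Plau region 10.8 kb downstream (9.49% of all 69151 regions tested were lower), and 2 were higher, at Plat and Serpine2 (6.48% of all), of which the Serpine2 region was not past 2-fold on the authors' normalized values. The median log2 ratio was 0.040 for member regions and -0.045 for all regions. Direction went together with the library in which a peak had been called, and the reads that give the ratio are also those that the peak call used. All 10 member regions with a peak in the TGF-β library alone had ratios below 0, and both with a peak in the siHK1 library alone had ratios above 0, while over all c-JUN regions of these kinds 16.9% and 95.3% were above 0. Of the 17 member regions with peaks in both libraries (58.6%; 49.7% of all regions), 13 had ratios above 0, as had 57.9% of all such regions, and the median was 0.11 beside 0.082.

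H3K9lc, the lactate-derived histone mark, was listed at Serpine2 and Plaur, and no region of Plat or Plau was listed in either H3K9lc table. None of the 8 regions of the siHK1 table was classed as promoter (6.78% of all regions were), and 7 were intergenic (65.3% of all). Of the 7 that reached the minimum level, 1 was at least 2-fold lower in the siHK1 library (10.3% of 62285 tested regions) and 2 were higher (8.77%). On the authors' normalized values, and with totals over regions with a peak in both libraries, only 1 of the 2 was higher, and at a minimum level of 10 both Serpine2 calls ended. The median log2 ratio was 0.22 over the member regions and -0.081 over all. Of the 2 genes tested, none was lower (3.9% of all genes tested) or higher (3.98%).

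At Serpine2 the 6 H3K9lc regions formed a stretch between 50.8 and 104.4 kb upstream of the start. The region with the most scaled reads, 80.9 kb upstream (chr1:79942035-79942443), held 45 reads in the TGF-β library and 33 in the siHK1 library (log2 ratio 0.37, -0.33 to 1.04). The region 88.2 kb upstream held 46 and 23 reads (-0.17, -0.98 to 0.56), and the one nearest the start, 50.8 kb upstream, 7 and 4 (0.075, -2.22 to 1.98). The region 75.7 kb upstream (chr1:79936866-79937120) was the lower one, with 18 and 4 reads (-1.23, -3.38 to 0.24), and the region 104.4 kb upstream (chr1:79965580-79965867) was higher, with 7 and 11 reads (1.43, -0.034 to 3.07). All of these intervals included 0, and the lower and the higher region had mean scaled counts of 9.44 and 9.93, under a minimum of 10. Summed over the 6 regions, Serpine2 had 148 and 88 reads, a log2 ratio of 0.065 (-0.34 to 0.45), which turned to -0.025 on the authors' normalized values and -0.047 with totals over regions with a peak in both libraries. The lower H3K9lc region lay 333 bp from the c-JUN region that was higher, the closest approach of an H3K9lc and a c-JUN region of these genes. None of the 8 H3K9lc member regions overlapped a c-JUN region, beside 5.92% of all H3K9lc regions.

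At Plaur the H3K9lc reads were few. The intronic region 5996 bp downstream of a start (chr7:24468496-24469184) held 12 reads in the TGF-β library and 14 in the siHK1 library, a log2 ratio of 1.03 (-0.19 to 2.28). In this comparison no peak was marked there in either library. The control comparison listed a smaller region inside it (chr7:24468843-24469184) with a peak marked in the TGF-β library. Its ratio was 0.87 on the authors' normalized values and 0.91 with totals over shared peaks, both short of 2-fold. The region 4.48 kb upstream held 4 reads in each. Summed, Plaur had 16 and 18 reads, a log2 ratio of 0.98 (-0.073 to 2.05), and its level per kb stood at percentile 9.61 of all genes in that table, whereas Serpine2 stood at 85.2. In reads per kb per 1000000, H3K9lc was 25.6 and 26.7 at Serpine2 and 6.89 and 13.6 at Plaur in the TGF-β and siHK1 libraries.

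The comparison of the control and TGF-β libraries shares its TGF-β library with the one above. Its counts were identical in 44088 of 44088 regions listed with the same coordinates, and the pair of comparisons is therefore not independent. Serpine2 had 6 reads in the NC library and 142 in the TGF-β library. That raw difference was close to the difference in totals, 115572 against 2313288, and the log2 ratio at equal totals was 0.13 (-0.92 to 1.71). The ratio was 0.69 on the authors' normalized values and 0.83 with totals over shared peaks. The region 80.9 kb upstream held 3 and 45 reads, the one 88.2 kb upstream 1 and 46, and the one 75.7 kb upstream 0 and 18. The region nearest a start, an intronic one, held 1 read in each library. Plaur had 0 and 8 reads, and a count of 0 in NC allows up to 26.0 reads per 1000000, so that no difference was detectable at this depth.
Of the 8 member regions in that table, 3 reached the minimum level. None was lower (21.7% of 21396 tested) or higher (10%), and Serpine2, the 1 gene tested, was neither (10.9% of genes lower, 12.6% higher). The Serpine2 region 88.2 kb upstream had a log2 ratio of 0.63 at equal totals. It was 1.56 on the authors' normalized values and 1.33 with totals over shared peaks, both past 2-fold higher. A peak was marked in the TGF-β library alone at 7 of the 8 member regions and at 85.9% of all regions. Whether TGF-β changed the amount of H3K9lc and whether the NC library was merely shallow cannot be told apart from these totals.

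**Figure D3:**
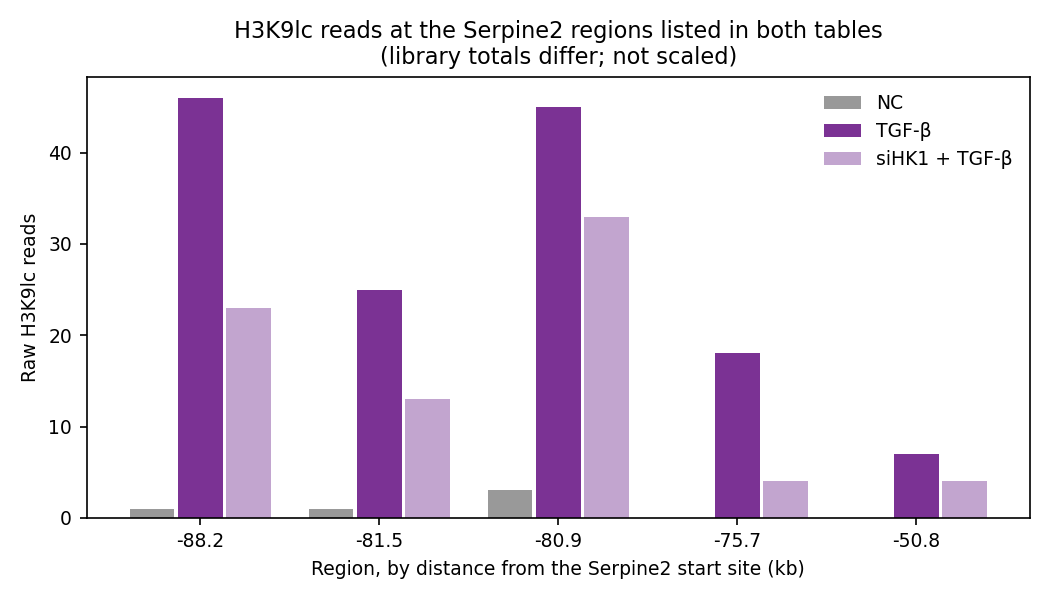
Raw H3K9lc reads at the 5 Serpine2 regions listed at the same distance from the start in both H3K9lc tables, in the NC, TGF-β and siHK1 libraries, 1 library each and not scaled. NC bars reach at most 3 reads and TGF-β bars 7 to 46 reads, while the library totals are 115572 and 2313288 reads for NC and TGF-β.

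SMAD3, which carries the TGF-β signal to the nucleus, had 13 regions at the 4 genes, all with few reads. No region had more than 10 reads in the TGF-β library or 8 in the siHK1 library, and none had a peak in both libraries (4.98% of all regions did). Only 2 of the 13 reached the minimum level, and neither was lower (14.1% of 15361 tested) or higher (32.3%). These were a Serpine2 region 1.77 kb upstream of a start with 7 and 5 reads and the Plaur region 2.58 kb upstream with 10 and 4 reads.
Serpine2 had 7 SMAD3 regions. The region nearest a start, 0.414 kb upstream, held 2 reads in each library. A region 0.903 kb upstream of another start (chr1:79859599-79859823) held 1 and 7 reads (log2 ratio 2.82, 0.34 to 8.80). An intronic region (chr1:79845169-79845582) held 0 and 8. With its 0 set to a floor of 3 reads, the intronic region was 3.76-fold higher in the siHK1 library. Its exact log2 interval started at 1.27 and had no upper limit, and neither region reached the minimum level. These 2 SMAD3 regions lay on c-JUN regions whose own raw reads were 137 and 58, and 47 and 20. At equal totals the c-JUN log2 ratios were -0.34 (-0.82 to 0.11) and -0.32 (-1.17 to 0.44). Summed, Serpine2 had 25 SMAD3 reads in each library (0.49, -0.36 to 1.35). Over all 4 genes, 5 of 13 SMAD3 regions overlapped a c-JUN region by at least 1 bp (38.5%; 23.0% of all SMAD3 regions).

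Summed by gene, SMAD3 reads at Plau numbered 3 in the TGF-β library and 10 in the siHK1 library, a log2 ratio of 2.08 (0.27 to 4.73). The ratio was 1.49 on the authors' normalized values, 2.16 with totals over shared peaks and 1.15 without the highest region. Plau was the only one of the 4 genes past 2-fold, and 22.1% of all 11560 genes tested were also higher, with 11% lower. Its 3 SMAD3 regions were intergenic, and none reached the minimum level. The one 17.1 kb upstream (chr14:20819171-20819569) held 0 and 5 reads, 2.35-fold higher with the 0 set to the floor (lower end of the log2 interval 0.37). The one nearest the start, 10.8 kb upstream, held 2 and 3. Plat had 7 and 4 reads (-0.24, -2.53 to 1.66) and Plaur 10 and 4 (-0.73, -2.95 to 0.97), so that these intervals spanned more than 2-fold in both directions except at the upper end for Plaur.

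NFATC2, a calcium-dependent factor, had 7 regions at these genes, 3 at Serpine2, 3 at Plau, 1 at Plat and none at Plaur. None reached the minimum level, so no region was tested (14.4% of 10717 tested regions were lower and 17.5% higher). Read counts were 0 to 4 in the TGF-β library and 2 to 5 in the siHK1 library. The region of highest mean scaled count, in a Serpine2 exon (chr1:79817660-79817903), held 4 reads in each. The region nearest a Plau start, 2.97 kb downstream, held 2 and 5 reads. One 8.45 kb upstream held 0 and 4, 2.16-fold higher with the 0 set to the floor (lower end of the log2 interval 0.10). Summed, Plau had 3 and 11 reads, a log2 ratio of 2.42 (0.65 to 5.05), and was higher together with 15.6% of 11161 genes tested (8.41% lower). Serpine2 had 7 and 8 reads (0.88, -0.77 to 2.59), and Plat had 3 in each library and was not tested. The Plat reads lay 1.14 kb downstream of a start, on the c-JUN region with 83 and 58 reads, the only NFATC2 member region that overlapped one (14.3%; 16.7% of all).

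All 3 SMAD3 and all 3 NFATC2 regions of Plau had a peak in the siHK1 library alone, as had all 7 NFATC2 member regions. Over all regions this held for 47.7% in the SMAD3 table and 54.0% in the NFATC2 table. Among genes tested whose every region had a peak in the siHK1 library alone, 74.1% of 2165 genes were at least 2-fold higher for SMAD3 and 71.8% of 1378 genes for NFATC2, with median log2 ratios of 1.43 and 1.44. Plau at 2.08 and 2.42 lay above these medians on 13 and 14 reads, and the part of the peak calls in these ratios was not tested.

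**Figure D4:**
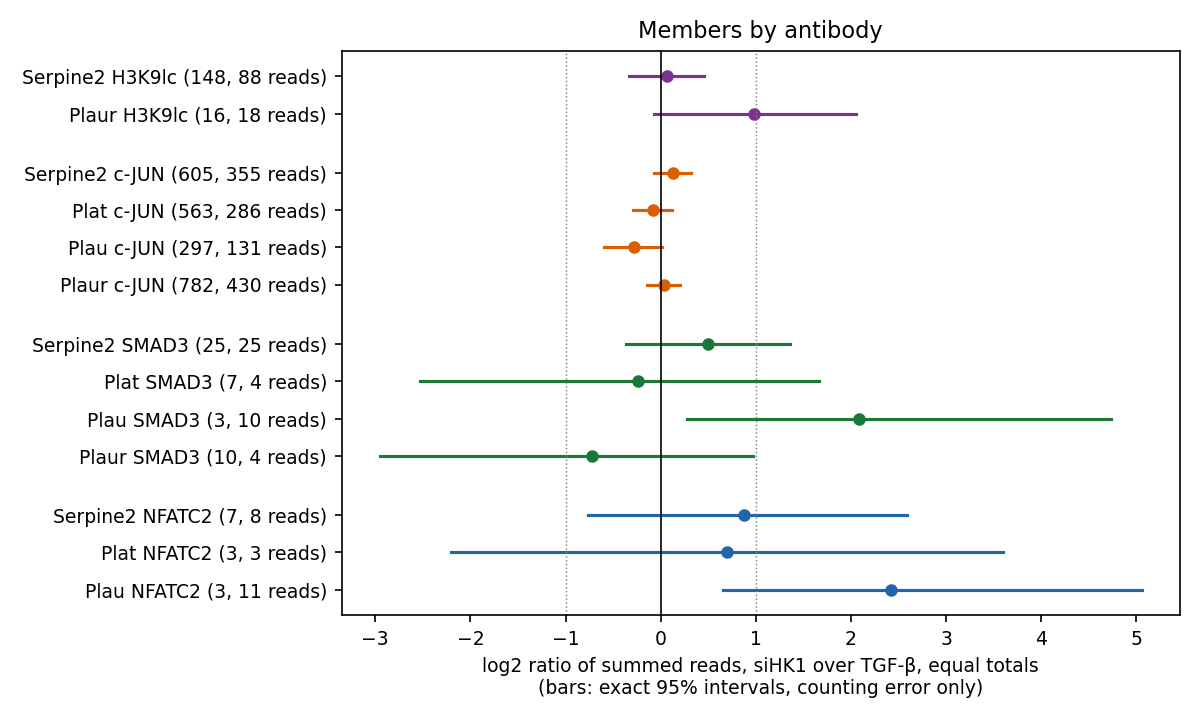
Log2 ratio of summed reads of each member, siHK1 over TGF-β at equal totals, for each antibody, with exact 95% intervals for counting error and raw reads (TGF-β, siHK1) beside each name; dotted lines mark 2-fold. The c-JUN intervals are narrow and all include 0, and the intervals that lie wholly above 0 are those of Plau for SMAD3 and NFATC2.

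Serpine2 had listed regions in every table, Plaur had none for NFATC2, and Plat and Plau had none for H3K9lc. Of all 22473 genes, 77.3% had a listed NFATC2 region and 57.8% a listed H3K9lc region in the siHK1 comparison, and the tables hold no reads outside listed regions, so that a gene without one is not shown to lack the mark or factor. The sign of the ratio at Plau differed between antibodies, below 0 for c-JUN and above 0 for SMAD3 and NFATC2, but the c-JUN interval reached 0.013 and the difference between antibodies was not tested. At Plau, 5 of 7 c-JUN regions had a peak in the TGF-β library alone. All 3 SMAD3 and all 3 NFATC2 regions had one in the siHK1 library alone. Over all regions of these kinds, 16.9% had ratios above 0 for c-JUN, 94.2% for SMAD3 and 93.0% for NFATC2. The part of the peak calls in these signs was not tested. The median over the genes was -0.027 for c-JUN (-0.0088 over all genes tested), 0.52 for H3K9lc (-0.055), and 0.13 for SMAD3 (0.23). For NFATC2 it was 1.65 over the 2 genes tested (0.14), and 0.88 with Plat, which was below the minimum level.

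Of 23 other genes of the plasminogen system, 16 had a c-JUN region, as had 75.5% of all 22473 genes. All 16 were tested, with 1 lower (Fga, a fibrinogen chain, 25 and 5 reads, beside 3.35% of all genes) and none higher (2.8%). For H3K9lc 10 were tested and none was lower (3.9% of all genes) or higher (3.98%). For SMAD3 9 were tested, with 1 lower, Plg (11% of all genes), and 3 higher, Lrp1, S100a10 and Cpb2 (22.1%). Cpb2, which encodes a carboxypeptidase that protects fibrin from plasmin, had 4 and 8 SMAD3 reads (log2 ratio 1.41, -0.41 to 3.68). For NFATC2 11 were tested, with none lower (8.41%) and 1 higher (15.6%), Anxa2. The median log2 ratio of the tested genes was 0.017 for c-JUN (-0.0088 over all genes tested), -0.31 for H3K9lc (-0.055), 0.80 for SMAD3 (0.23) and 0.49 for NFATC2 (0.14).
Lrp1, the receptor that clears activator and inhibitor complexes, had 1396 and 623 c-JUN reads in the TGF-β and siHK1 libraries (log2 ratio -0.27, -0.41 to -0.13) and 82 and 133 SMAD3 reads (1.19, 0.78 to 1.61). It had 54 and 57 NFATC2 reads (0.78, 0.21 to 1.34). Its c-JUN interval thus lay below 0 and its SMAD3 and NFATC2 intervals above 0.
Anxa2 and S100a10 form a complex that holds plasminogen and tissue-type activator at the cell surface. Anxa2 had 1241 and 800 c-JUN reads (0.26, 0.13 to 0.39) and 17 and 22 NFATC2 reads (1.06, 0.091 to 2.08). Its SMAD3 reads numbered 36 and 33 (0.37, -0.36 to 1.09) and its H3K9lc reads 76 and 32 (-0.42, -1.08 to 0.18), so that the H3K9lc ratio alone was below 0. S100a10 had 825 and 476 c-JUN reads (0.099, -0.067 to 0.26) and 8 and 23 SMAD3 reads (1.96, 0.81 to 3.39). Its NFATC2 reads numbered 9 and 6 (0.15, -1.66 to 1.77), and its H3K9lc reads, 5 and 0, were below the minimum level. Plg, which encodes plasminogen itself and is expressed mainly in liver, had 249 and 112 c-JUN reads (-0.26, -0.60 to 0.067) and 11 and 2 SMAD3 reads (-1.71, -5.18 to 0.23). Its H3K9lc reads numbered 20 and 15 (0.41, -0.67 to 1.44) and its NFATC2 reads 13 in each library (0.70, -0.53 to 1.93). In the comparison of control and TGF-β, 6 of the 23 genes were tested. Lrp1 was lower, with 4 reads in NC and 5 in the TGF-β library (10.9% of all genes were lower), and Hgf was higher, with 4 and 255 reads (12.6%).

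The genes whose log2 ratios lay closest to those of each member were found by distance over the tables in which the member had a region. For Serpine2, over 5 tables and 1392 candidates, they were Cplx2 at a distance of 0.26 and Rabgap1l at 0.27, where the median candidate was at 1.47. For Plat, over 3 tables and 2637 candidates, they were Trim29 at 0.061 and Prickle1 at 0.077. For Plaur, over 4 tables, Dcdc2a at 0.58 and Fam186a at 0.60 were closest, and for Plau, over 3 tables, Mir3075 at 0.81 and Rad51b at 0.98. The median candidate was at 1.05 for Plat, 1.46 for Plaur and 3.15 for Plau. These distances rest on few reads, at most 10 SMAD3 and 11 NFATC2 reads in a library for Plat, Plau and Plaur. Those of Serpine2 rest in part on 7 and 8 NFATC2 reads (-0.77 to 2.59) and on 6 NC reads (-0.92 to 1.71). Both of these intervals are wider than its distances. The Plaur coordinate in the control comparison, with 0 NC reads, was -1.15 with a pseudocount of 1 and 2.02 with 0.1, a shift wider than its distances, so that its nearest genes depend on that choice.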

How the data were processed

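CUT&Tag was run on mouse primary cardiac fibroblasts, giving 10 libraries, of which 9 were used; a library titled TGF whose labels name no antibody was in no group and was not analysed here. For each region of 5 tables the authors deposited raw read counts of both libraries, a 0 or 1 mark for a called peak, and normalized log2 values per library. The peak marks are the authors' calls for each library, not pooled. The labels name BWA 0.7.12 and mm10, while the study's methods name Bowtie2, MACS2 and another build; all 48676 of 48676 transcripts found in GENCODE vM21 had GRCm38 coordinates, so that GRCm38 is used. The authors' ratios, p-values and calls were not used, and 1 column of another library in an unused table matched no sample.

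The counts of each pair were scaled to equal totals over all listed regions, and log2 ratios used a pseudocount of 0.5. Regions and genes counted as lower or higher at 2-fold or more with a mean scaled count of at least 5. Sums carry exact Poisson 95% intervals, and ratios carry exact conditional binomial (Clopper-Pearson) ones, for counting error only. A library with 0 reads was set to a floor of 3 reads. No test between conditions was possible with 1 library per condition, and library depths are unknown. Named were all 4 members, in each table the region of highest mean scaled count, the one nearest a start and those past 2-fold, and Plg, Anxa2, S100a10 and Lrp1 of 23 other plasminogen genes, the rest of which enter as counts (1 further gene of the list was not analysed here); Fga, Hgf, Cpb2 and further member regions with their values were chosen after the values were seen. Likeness of genes was the Euclidean distance between log2 ratios among genes with a mean scaled sum of at least 20. The members and lists were chosen with earlier results of these data known. Scripts used Python 3.11.15, numpy 2.4.6, pandas 2.3.3 and scipy 1.17.1 and were tested on simulated data. Alternatives of scaling, pseudocount, level, fold, chromosomes and region width were run.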

Additional observations from a re-analysis of the deposited data

How the results depend on the processing

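Of 141 alternative values of the members' log2 ratios, 129 stayed within the counting interval, which is wide at low counts: Plaur in the control comparison, with 0 NC reads, stayed within it from -1.15 to 4.09. The sign differed from the main value in 20 of the 141, 2 of them at 0. Of these, none was a gene past 2-fold. Of 100 alternative region counts, 78 stayed within 1.5 times. Without scaling, which moved the median ratio of all regions by -0.81 for H3K9lc, -0.89 for c-JUN, -0.49 for SMAD3, -0.70 for NFATC2 and 4.32 for control against TGF-β, 14 c-JUN regions were lower and 0 higher, 0 H3K9lc regions were higher, 1 SMAD3 region was lower and 4 regions were higher in the control comparison. The log2 ratios were then -0.75 for Serpine2 H3K9lc, -0.77, -0.98, -1.18 and -0.86 for c-JUN at Serpine2, Plat, Plau and Plaur, and 4.45 for Serpine2 in the control comparison. The deposited normalized values lowered the higher regions from 2 to 1 for H3K9lc and for c-JUN and raised them from 0 to 1 in the control comparison, and totals over shared peaks did the same for H3K9lc and the control comparison. A minimum level of 10 left 0 lower and 1 higher H3K9lc regions. With no minimum, 3 c-JUN regions were lower, 4 SMAD3 regions were lower and 4 higher, 4 NFATC2 regions were higher and 3 regions of the control comparison were lower. At 1.5-fold, 3 c-JUN regions and 1 SMAD3 region were lower, and in the control comparison 1 region was lower and 1 higher. A pseudocount of 0.1 gave 1 higher region in the control comparison. For c-JUN, regions within 3 kb of a start gave -0.26 at Serpine2 and 0.29 at Plat, the highest region alone -0.34 at Serpine2, 0.12 at Plat and 0.11 at Plau, and Plau without its highest region -0.75. The cause of these differences was not tested. No paired analysis was possible because no antibody had a second library of any condition. A count of 0 allows up to 5.32 SMAD3 and 5.21 NFATC2 reads per 1000000 in the TGF-β libraries, 7.50 and 8.46 in the siHK1 libraries, and 26.0 in NC.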
